A study of Mus musculus with 2 samples.

Results

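The genes described here are 9 transcripts that link coagulation and fibrinolysis with macrophages of the arterial adventitia. They are *F7*, *F10* and *F13a1* of the clotting cascade, *Tfpi* and *Thbd* as anticoagulants, *Plau*, *Plaur* and *Serpinb2* of the plasminogen system, and the platelet chemokine *Pf4*. They were chosen by symbol, 9 of the 55386 features counted, and none of them was used to sort cells into classes. Both libraries come from RankCreRosa26eYFP mice aged about 16 weeks, of both sexes and C57BL/6 background, from whose whole aortas CD45-positive adventitial cells were sorted and captured with the 10x 3' v3.1 chemistry. In these mice Cre is made where *Rank* (*Tnfrsf11a*) is active, and an eYFP reporter then stays on in the descendants of erythro-myeloid progenitors (EMPs), so that *Yfp* transcripts (listed as EYFP) mark EMP-derived cells. The steady-state library pooled 3 untreated animals, and the AngII library pooled 2 animals that had received angiotensin II at 1.8 µg/kg/min for 10 days. Each condition is 1 library, so differences between conditions have no replicate check, no p-value was computed, and all intervals (95%) cover counting error only.

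Coagulation starts when tissue factor meets factor VII and activates factor X, which makes thrombin. Thrombin cleaves fibrinogen to fibrin, and factor XIII then cross-links the fibrin strands. Tissue factor pathway inhibitor and thrombomodulin restrain these steps. Fibrin is removed by plasmin, which urokinase makes from plasminogen at the cell surface while bound to its receptor, and plasminogen activator inhibitors hold urokinase in check. Macrophages are known sources of several of these proteins outside the liver. Platelet factor 4, a heparin-binding chemokine best known from platelet granules, is also a known transcript of tissue-resident macrophages.

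Of the barcodes deposited, 306 of 346 at steady state and 4198 of 4419 in AngII were kept, having from 300 to 6500 genes and no more than 5% of their UMIs (unique molecular identifiers, 1 per captured transcript) from mitochondria, and no barcode was shared between the libraries. Depth differed greatly, with a median of 9105 UMIs per kept cell at steady state and 1092 in AngII, where 45.5% of the cells held fewer than 1000 UMIs. Each cell was given the class whose marker genes it expressed most completely, and macrophage-like cells were then divided by markers of resident (*Lyve1*, *Folr2*, *Cd163* and others), type-2 (*Ear2*, *Retnla*), reparative (*Arg1*, *Spp1*) and interferon-response cells. This gave 116 resident macrophage-like cells at steady state and 556 in AngII, and 31 and 2050 macrophage-like cells outside the resident class. The leading genes of the resident class were *Cd209f*, *Folr2* and *Lyve1* at steady state and *Cd163*, *Gas6* and *Cbr2* in AngII, and a resident cell held a median of 60 and 6 UMIs of the resident marker list but 2 and 1 UMIs of the reparative list. In AngII, 173 of the 556 resident cells lay close to the boundary with another macrophage class, against 3 at steady state, and 85 of 236 classical monocyte-like cells lay close to that of another lineage. A further 155 AngII cells (3.69%) were left without a class, against 0 at steady state. The 1122 AngII cells called other macrophages had none of the class markers among their 10 leading genes, and the AngII classical monocyte-like cells were led by immunoglobulin transcripts, of which 1 cell held at least 5% of its UMIs, ahead of *Chil3*, *Ly6c2* and *Vcan*.

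Levels are given as CPM, that is counts per 1e6 UMIs, with UMIs summed over the cells of a class. Droplets also carry free RNA, and B and T cell-like cells, which should lack macrophage transcripts, served as the measure of it. They numbered 94 at steady state (median 6756.5 UMIs) and 417 in AngII (median 1257 UMIs). In them, *Pf4* stood at 32.4 and 121 CPM, with a UMI in 10.6% and 21.1% of the cells. The corresponding shares were 5.32% and 7.67% for *F13a1*, 18.1% and 9.35% for *Plaur*, 0% and 2.40% for *F10*, 3.19% and 4.32% for *Tfpi*, 3.19% and 0.719% for *Plau*, 0% and 0.959% for *Thbd*, and 0% and 0.480% for *F7*. For *Plaur* this measure is unsure, since B cell-like cells alone held 72.5 CPM at steady state, and 75.8 CPM without cells bearing markers of 2 lineages. Where shares are set across the libraries, each cell was also thinned to 1000 UMIs and shallower cells were left out.

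The sequences ahead of 4 start sites are shown because these genes fell into contrasting pairs, *Pf4* and *F13a1* with their highest level in resident macrophage-like cells and *F10* and *Plaur* with theirs in classical monocyte-like cells. Each run holds the 250 bases before the annotated start, 5′ to 3′ on the strand of the gene, from RefSeq on GRCm38.p6. They lie at chr5:90772185-90772434 (*Pf4*, plus strand), chr13:37050245-37050494 (*F13a1*, first of its listed starts, minus strand), chr8:13037058-13037307 (*F10*, plus strand) and chr7:24462233-24462482 (*Plaur*, plus strand). Capitals mark matches to any of 6 motifs searched on both strands.
Pf4: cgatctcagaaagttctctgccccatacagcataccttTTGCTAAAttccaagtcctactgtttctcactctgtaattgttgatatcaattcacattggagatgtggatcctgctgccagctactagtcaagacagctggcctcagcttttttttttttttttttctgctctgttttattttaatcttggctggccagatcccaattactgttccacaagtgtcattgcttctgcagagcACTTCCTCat
F13a1: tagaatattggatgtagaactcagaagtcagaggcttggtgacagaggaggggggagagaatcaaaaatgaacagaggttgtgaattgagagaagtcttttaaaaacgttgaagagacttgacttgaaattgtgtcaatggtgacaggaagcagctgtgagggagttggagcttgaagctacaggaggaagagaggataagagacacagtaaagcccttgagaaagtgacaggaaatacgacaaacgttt
F10: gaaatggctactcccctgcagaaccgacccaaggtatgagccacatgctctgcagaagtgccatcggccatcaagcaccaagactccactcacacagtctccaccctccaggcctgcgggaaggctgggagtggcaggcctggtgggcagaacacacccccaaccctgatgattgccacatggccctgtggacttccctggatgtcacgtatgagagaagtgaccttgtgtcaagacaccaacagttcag
Plaur: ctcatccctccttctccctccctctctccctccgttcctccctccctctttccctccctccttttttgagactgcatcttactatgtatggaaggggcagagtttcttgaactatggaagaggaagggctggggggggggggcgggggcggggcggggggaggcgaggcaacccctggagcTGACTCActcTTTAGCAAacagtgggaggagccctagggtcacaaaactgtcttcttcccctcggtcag
The *Pf4* run held a C/EBP match (TTGCNNAA, in 9.56% of 32851 RefSeq start-site windows of the same length) whose first base lies 212 bases before the start, and a PU.1 match (GAGGAAGT, in 2.44% of windows) on the opposite strand, 10 bases before the start. The *Plaur* run held an AP-1 match (TGANTCA, in 6.75% of windows) 69 bases and a C/EBP match 59 bases before the start. The *F13a1* and *F10* runs held none of these, nor a GATA match (AGATAA, 9.99% of windows), a MAF half-site (TGCTGA, 16.1%) or a TATA match (TATAAA, 12.4%). These matches are descriptions of letters, and binding was not measured.

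*F7* (ENSMUSG00000031443.7, chromosome 8, 13026034 to 13035809) encodes factor VII, the protease that tissue factor turns on. Positions here and below are 1-based gene boundaries of GENCODE M21 (build GRCm38), an earlier release than the M24 used for counting. At steady state all 7 *F7* UMIs were in 4 of the 25 type-2 macrophage-like cells, a level of 10.8 CPM (4.35 to 22.3). No *F7* UMI was seen in the 116 resident cells, which allows a share of up to 2.59% of such cells with a UMI by a limit of 3 cells, or 3.13% by the exact binomial interval. In AngII, *F7* was again highest in type-2 macrophage-like cells, at 43.3 CPM (34.8 to 53.3) and in 8.06% of 372 cells. Reparative macrophage-like cells followed at 20.9 CPM (15.6 to 27.4), with an interval below that of the type-2 cells. Resident cells held 4.68 CPM (2.49 to 8.01). None of 308 T cell-like cells held a UMI, but B cell-like cells held 6.58 CPM (1.36 to 19.2), with an interval that overlapped the resident one.

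*F10* (ENSMUSG00000031444.16, chromosome 8, 13037308 to 13056676) encodes factor X, which forms the enzyme that makes thrombin, and it starts 1498 bases after the end of *F7* on the same strand. At steady state it was a monocyte transcript in these cells. It stood at 160.4 CPM (105 to 235) in the 11 classical monocyte-like cells, 7 of which held a UMI, with a median of 146 CPM per cell and a highest cell of 373 CPM. Nonclassical monocyte-like cells held 72.0 CPM, and their interval overlapped that of the classical cells. Type-2 macrophage-like cells held 17.0 CPM, with 4 of 25 cells holding a UMI, while the 116 resident cells held 1 UMI in all. No *F10* UMI was found in B, T or cDC1-like cells.

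In AngII the *F10* level of classical monocyte-like cells was 149.7 CPM (131 to 171), with a UMI in 30.1% of 236 cells. The ratio of AngII to steady state in these cells was 0.933 (0.620 to 1.46). Nonclassical monocyte-like cells (105 CPM) and type-2 macrophage-like cells (84.7 CPM) followed, each with an interval that overlapped the next in the order. Reparative macrophage-like cells held 71.4 CPM, neutrophil-like cells 66.5 CPM and resident macrophage-like cells 13.3 CPM (9.38 to 18.4). B and T cell-like cells held 10.5 CPM, within the resident interval, but without cells bearing markers of 2 lineages they held 0.729 CPM (1 UMI) and resident cells 11.6 CPM. After thinning, 1 of 391 resident cells and 1 of 247 B and T cell-like cells held an *F10* UMI, so the thinned shares rest on single cells and do not separate these groups, while the share was 7.09% (3.45 to 12.7) in 141 classical monocyte-like cells.

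*F13a1* (ENSMUSG00000039109.16, chromosome 13, 36867178 to 37050244, minus strand) encodes the catalytic A subunit of factor XIII. Resident macrophage-like cells at steady state held 2427 CPM (2342 to 2514), with a UMI in 114 of 116 cells and a median of 2279 CPM per cell. Type-2 macrophage-like cells followed at 990.2 CPM and classical monocyte-like cells at 605 CPM (491 to 737), and these intervals did not overlap with each other or with the resident one. All 11 classical monocyte-like cells held *F13a1*, between 122 and 1248 CPM per cell. Nonclassical monocyte-like cells stood at 155 CPM, but 27 of their 28 UMIs came from 1 cell. In AngII the order changed below the resident class. Resident cells held 1349.7 CPM (1307 to 1394), and classical monocyte-like cells came next at 609 CPM (570.5 to 650.1), above the reparative (494 CPM) and type-2 (451 CPM) classes, whose intervals overlapped.

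Among the anticoagulants, *Tfpi* (ENSMUSG00000027082.15, chromosome 2, 84432855 to 84476775, minus strand) encodes tissue factor pathway inhibitor, which blocks factor Xa and the tissue factor complex. It was low throughout, at 15.6 CPM (9.55 to 24.1) in resident cells at steady state and 19.4 CPM (14.6 to 25.4) in AngII. T cell-like cells of AngII held 16.6 CPM, within the interval of the resident cells, but B cell-like cells held 2.19 CPM (0.0555 to 12.2), below it. As these levels are unlike, the measure of free RNA is unsure for *Tfpi*. After thinning, 1.28% of AngII resident cells and 1.62% of B and T cell-like cells held a UMI, so the thinned shares did not separate these groups.

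*Thbd* (ENSMUSG00000074743.4, chromosome 2, 148404466 to 148408188, minus strand) encodes thrombomodulin, which turns thrombin towards the activation of protein C. At steady state it was found in 11 of 14 nonclassical monocyte-like cells, at 105 CPM (63.3 to 164). Classical monocyte-like cells (61.7 CPM) and resident macrophage-like cells (53.1 CPM, 41.3 to 67.4, in 21.6% of cells) had intervals that overlapped. Type-2 macrophage-like cells held 12.4 CPM (5.34 to 24.4), and no B, T or cDC1-like cell held a UMI. In AngII, classical monocyte-like cells held 44.6 CPM (34.5 to 56.6) and resident cells 27.0 CPM (21.2 to 33.9), with type-2 and reparative cells at 22.9 and 26.9 CPM.

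The plasminogen genes did not share an order. *Plau* (ENSMUSG00000021822.3, chromosome 14, 20836660 to 20843385), which encodes urokinase, stood at 30.5 CPM (21.7 to 41.7) in resident and 29.4 CPM (17.7 to 45.9) in type-2 macrophage-like cells at steady state, and no UMI was seen in the 25 monocyte-like cells. In AngII these 2 classes held 18.7 and 20.4 CPM, and the 24 mast cell-like cells 64.5 CPM from 2 UMIs (7.81 to 233), against 2.66 CPM (0.725 to 6.81) in classical monocyte-like cells. *Plau* thus stood higher in these macrophages than in monocytes in both libraries, whereas its receptor was highest in monocytes.

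*Plaur* (ENSMUSG00000046223.10, chromosome 7, 24462484 to 24475968) encodes that receptor. All 11 classical monocyte-like cells at steady state held it, from 69.3 to 981 CPM per cell, and the class stood at 469 CPM (369 to 587). Nonclassical monocyte-like cells held 448 CPM, with an overlapping interval, and type-2 macrophage-like cells 167 CPM, of which 1 cell gave 53 of 108 UMIs. Resident cells held only 15.6 CPM (9.55 to 24.1), below the 72.5 CPM of B cell-like cells. In AngII, classical monocyte-like cells held 308 CPM, neutrophil-like cells 270.2 CPM, nonclassical monocyte-like cells 219 CPM and reparative cells 179 CPM, of which 1 cell gave 101 of 447 UMIs. Resident cells held 56.9 CPM (48.4 to 66.5). *Serpinb2* (ENSMUSG00000062345.10, chromosome 1, 107511423 to 107535478), which encodes plasminogen activator inhibitor 2, was nearly absent from these counts, with 6 UMIs in 5 cells at steady state and 11 UMIs in 7 cells in AngII. None of these UMIs lay in a resident macrophage-like cell.

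*Pf4* (ENSMUSG00000029373.7, chromosome 5, 90772435 to 90773383) was found in 113 of 116 resident macrophage-like cells at steady state, at 4170.3 CPM (4059 to 4284). Single resident cells ran from 0 to 13124 CPM with a median of 3416 CPM. Type-2 macrophage-like cells held 837 CPM (768 to 911). The remaining classes of at least 10 cells lay between 7.36 CPM in T cell-like and 65.9 CPM in B cell-like cells, so the lowest macrophage class of that size stood far above all of them. The 11 classical monocyte-like cells held 2 *Pf4* UMIs, although each of them held *F13a1*.

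In AngII, *Pf4* was again highest in resident cells, at 2119 CPM (2065 to 2174) and in 79.5% of them, with a median of 1516 CPM per cell. Reparative (1241 CPM), type-2 (859 CPM), other (622 CPM) and interferon-response (612 CPM) macrophage-like cells followed, and in this order only the last 2 had overlapping intervals. Classical monocyte-like cells held 91.8 CPM, below the 121 CPM of B and T cell-like cells, of which 1 cell gave 119 of 231 UMIs. Without cells bearing markers of 2 lineages, these *Pf4* levels were 76.7 and 45.9 CPM. After thinning, *Pf4* was found in 7.80% (3.96 to 13.5) of classical monocyte-like cells and in 9.72% (6.33 to 14.1) of B and T cell-like cells, so the *Pf4* share of the monocytes was not above the background.

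Because *Pf4* is a platelet transcript, 13 platelet or megakaryocyte markers were summed in the same cells. Their sum was 9.38 CPM in resident cells at steady state (12 UMIs, 3 of 13 genes seen) and 6.84 CPM in AngII (19 UMIs, 4 of 13), against 32.8 and 17.1 CPM in the other macrophages. In the other macrophages *F2rl2* gave 16 of 23 of these UMIs at steady state, and *Ppbp* 58 of 130 in AngII. *Gp1bb*, *Gp9*, *Gp6*, *Tubb1* and *Alox12* were at 0 in all kept cells of both libraries. No resident cell in either library held 2 of these markers. Of the 25 AngII cells that did, 21 were cDC1-like and 2 macrophage-like, and none was classical monocyte-like. The only 2 of the 13 markers seen in AngII cDC1-like cells were *F2rl2* (69 of 125 UMIs) and *Clec1b*. Leaving the 25 cells out changed no call, but it hardly touched the groups compared, so this outcome was set in advance. Endothelial markers (8 genes) summed to 21.9 CPM in resident cells at steady state, 23 of 28 UMIs being *Egfl7*, and to 7.20 CPM in AngII. The 5 smooth muscle markers gave 1.56 and 4.32 CPM, the 6 fibroblast markers 5.47 and 9.36 CPM, the 4 erythroid markers 1.56 and 6.84 CPM, and the 6 hepatocyte markers, which bear on *F7* and *F10*, 0 and 1.08 CPM.

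**Figure D1:**
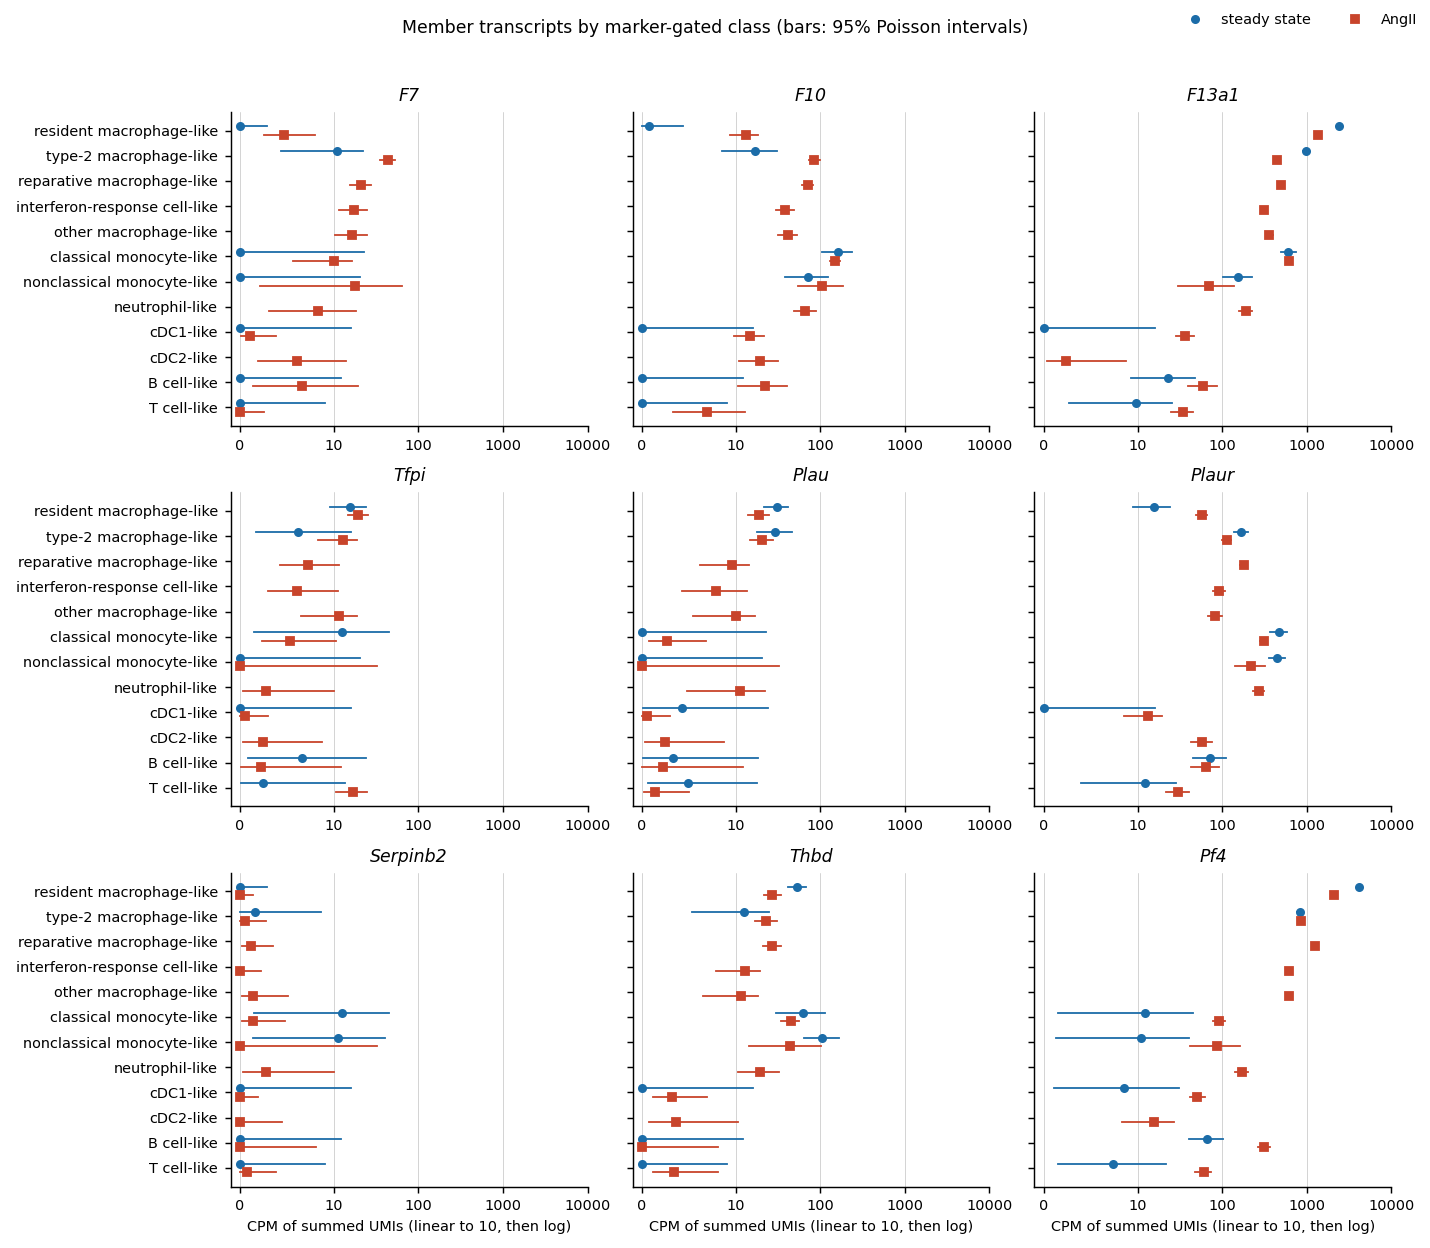
Level of each gene (CPM of summed UMIs, axis linear to 10 and then logarithmic) in the main marker-gated classes of at least 10 cells, with circles for steady state, squares for AngII and bars for 95% Poisson intervals. The mast, NK, ILC2, migratory dendritic and plasmacytoid dendritic cell-like classes of AngII are not drawn. *Pf4* and *F13a1* lie farthest right in resident macrophage-like cells of both libraries (4170.3 and 2427 CPM at steady state), *F10* and *Plaur* in classical monocyte-like cells (160.4 and 469 CPM).

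**Figure D2:**
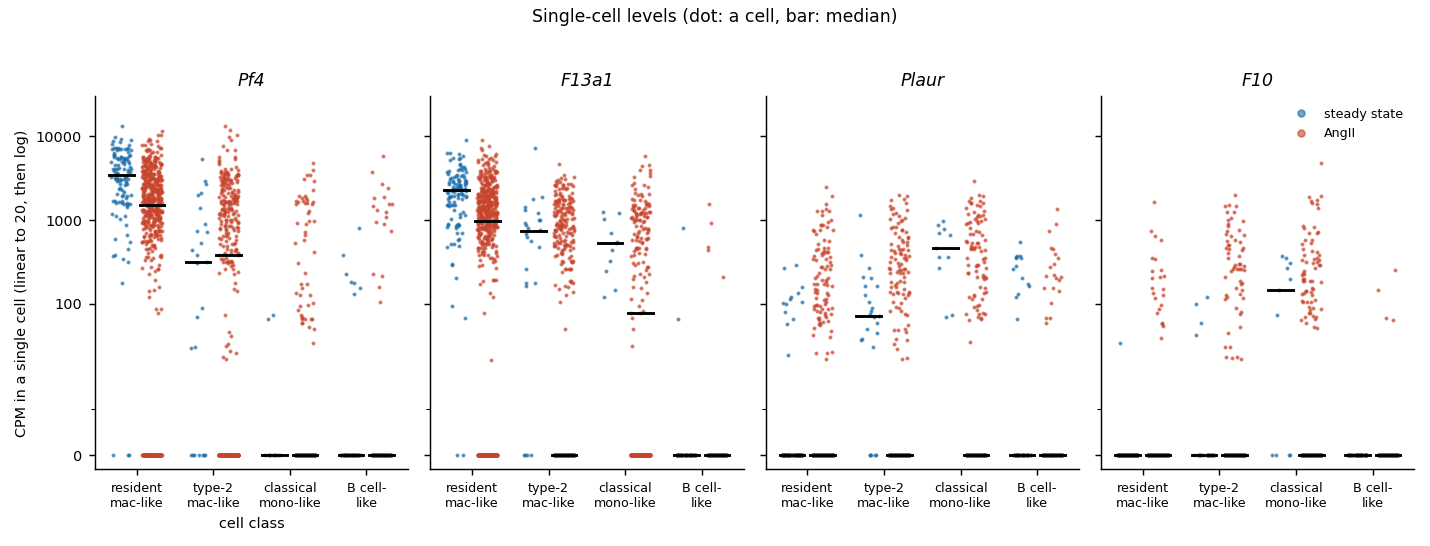
CPM of 4 genes in single cells (axis linear to 20 and then logarithmic), each dot a cell and each bar the median, in 4 classes with steady state in blue and AngII in red. Nearly all steady-state resident cells lie above 0 for *Pf4* and *F13a1*, while for *F10* 7 of 11 classical monocyte-like cells lie above 0 at steady state.

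The first comparison set resident against other macrophage-like cells of the same library. A gene was called different when both groups together held at least 20 UMIs and the CPM ratio was at least 2 or at most 0.5, which says nothing about error, so intervals are given beside it. Shares over all genes, here and below, are of genes with at least 20 UMIs, a minimum that 6 of the 9 genes met at steady state. Of the 9 genes 5 were called at steady state, 4 higher in resident cells and 1 lower, where 13.7% of 8178 genes were called higher and 5.82% lower. Resident cells held more of the platelet chemokine and of the fibrin cross-linker, and less of the urokinase receptor. *Pf4* was 4.63-fold (4.26 to 5.03) and *F13a1* 2.55-fold (2.35 to 2.78) higher in resident cells, *Thbd* 3.72-fold (1.91 to 8.12, 68 and 10 UMIs), and *Tfpi* 2.19-fold with an interval that reached below 1 (0.798 to 7.47, 20 and 5 UMIs). *Plaur* was lower, at a ratio of 0.0996 (0.0586 to 0.161). *F7* (0 and 7 UMIs) and *F10* (1 and 11 UMIs) held too few UMIs for a call, and the *Plau* ratio was 1.02 (0.584 to 1.82). The resident cells had a median of 9801 UMIs and the other macrophages, 25 of which were type-2 cells, 24062.

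In AngII 6 of the 9 genes were called, 3 in each direction, where 4.13% of 11443 genes were called higher and 3.94% lower. *Pf4* (2.39-fold, 2.31 to 2.47) and *F13a1* (3.23-fold, 3.08 to 3.38) were again higher in resident cells, as was *Tfpi* (2.11-fold, 1.45 to 3.05), whose ratio was 0.996 after thinning. *Plaur* was again lower (0.459, 0.385 to 0.543), but the call was lost in 4 of 11 alternatives, with a ratio of up to 0.671. *F7* (0.185, 0.0968 to 0.324) and *F10* (0.214, 0.149 to 0.299) were lower in resident cells and stayed so in all 11 alternatives. *Plau* (1.53) and *Thbd* (1.36) did not reach a 2-fold difference. *Pf4* and *F13a1* were thus higher and *Plaur* lower in resident cells of both libraries.

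Classical monocyte-like and resident macrophage-like cells were set against each other because the orders of levels had placed *F10* and *Plaur* in the former, so these ratios are a description. *F10* was at a ratio of 205 (33.7 to 8414) at steady state, resting on 26 and 1 UMIs, and at 11.2 (7.91 to 16.4) in AngII. *Plaur* was 30.0-fold (18.1 to 51.8) and 5.41-fold (4.51 to 6.53) higher in the monocytes. *F13a1* was lower there (0.249 and 0.451), as was *Pf4* (0.00296 and 0.0433). *Plau* had no UMI in the steady-state monocytes and 39 in resident cells, at least 1.65-fold lower, and stood at 0.142 (0.0373 to 0.386) in AngII. *Thbd*, at 1.16 and 1.65, separated them by less than 2-fold. In all, 5 of the 9 genes were past the 2-fold rule at steady state, 2 higher in the monocytes and 3 lower (*Plau* by its count of 0 only, as its bound is under 2-fold), where 11.3% of 7353 genes were higher and 26.9% lower. In AngII 7 were, 3 higher and 4 lower, where 4.79% of 9667 genes were higher and 14.2% lower. One of the higher genes was *F7*, at 9.98 CPM (5.58 to 16.5) in the monocytes and 4.68 CPM (2.49 to 8.01) in resident cells, intervals that overlap. *Tfpi* was one of the lower genes, at 5.32 CPM (2.30 to 10.5) and 19.4 CPM (14.6 to 25.4). Under the alternatives the counts of genes past the rule ran from 2 to 6 at steady state and from 3 to 7 in AngII, and *F7* was past 2-fold in 5 of 9.

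**Figure D3:**
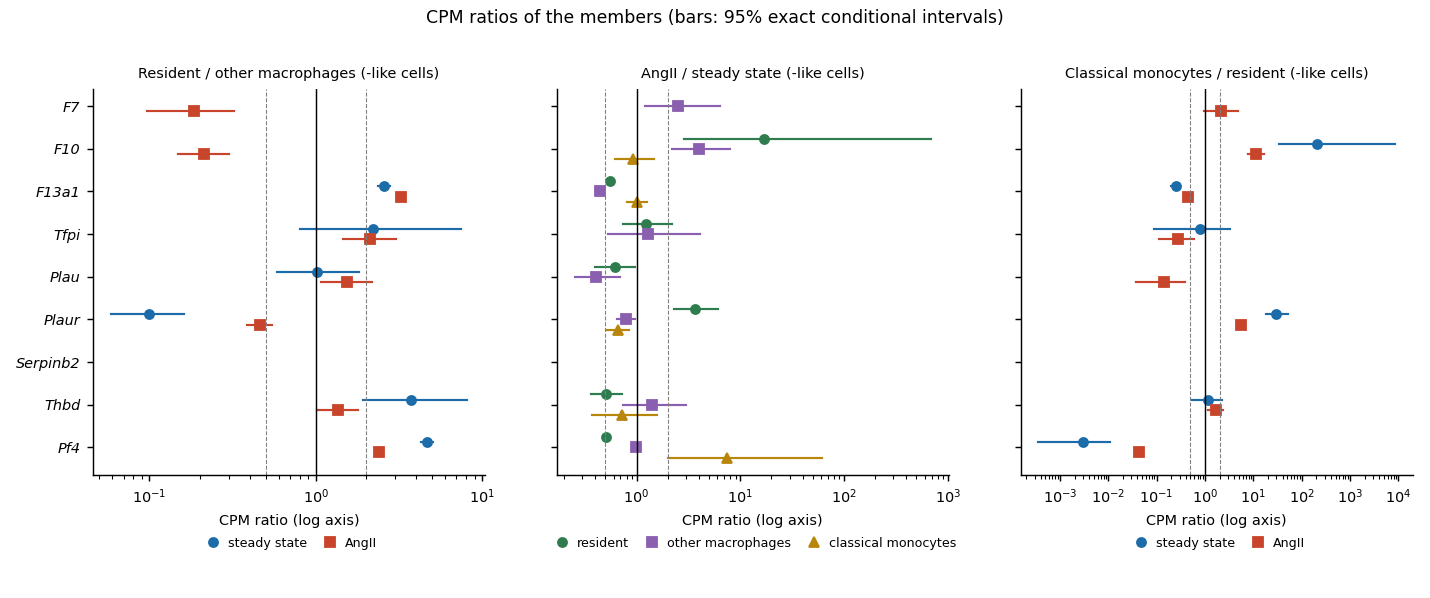
CPM ratios (log axis, 95% exact conditional intervals) of resident over other macrophage-like cells, of AngII over steady state and of classical monocyte-like over resident cells, with dashed lines at 2 and 0.5. A gene has no point where both groups held too few UMIs or a group held none. In the left panel *Pf4* and *F13a1* lie right of 2 and *Plaur* left of 0.5 in both libraries.

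AngII was then set against steady state within a class. In resident macrophage-like cells 2 of the 9 genes were called, both higher in AngII, where 7.21% of 9848 genes were called higher and 7.11% lower. These were *F10* at 17.0-fold (2.88 to 691, 37 and 1 UMIs) and *Plaur* at 3.64-fold (2.28 to 6.12, 158 and 20 UMIs), resting on few UMIs at steady state. The *F10* ratio was between 3.59 and 39.9 in the 9 alternatives that gave a value. B and T cell-like cells held no *F10* UMI at steady state and a level within the resident interval in AngII. That AngII level was far lower without cells bearing markers of 2 lineages. For *Plaur* resident cells stood below at steady state and above in AngII the level of B and T cell-like cells, which was 38.0 CPM at steady state and 37.9 CPM in AngII, and the thinned share in resident cells was 0.870% at steady state and 6.14% in AngII against 5.38% and 4.86% in B and T cell-like cells. In AngII the thinned *Plaur* shares of the 2 groups had overlapping intervals, and 1 thinned resident cell in each library held an *F10* UMI. The *Plaur* ratio was between 3.40 and 7.35 in all 10 alternatives that gave a value, the highest from 1 thinned UMI at steady state. With the B and T cell level subtracted it had no value, as steady-state resident cells lay below that level. *Pf4* stood just above the lower limit of the rule, at 0.508 (0.490 to 0.527), and *F13a1* at 0.556 (0.530 to 0.583). Their thinned shares were 86.1% and 69.6% of resident cells for *Pf4*, and 80.9% and 60.6% for *F13a1*, with intervals apart in both cases. *Thbd* was at 0.508 (0.361 to 0.716), *Plau* at 0.614 (0.398 to 0.956) and *Tfpi* at 1.24 (0.733 to 2.19). The 2-fold call itself was lost or gained with the processing for *Pf4* and *Thbd*, whose ratios were 0.493 and 0.454 without cells bearing markers of 2 lineages.

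In macrophage-like cells outside the resident class 4 genes were called, where 14.1% of 10993 genes were higher and 7.66% lower. *F10* was 3.97-fold (2.20 to 8.01, 473 and 11 UMIs) and *F7* 2.53-fold (1.21 to 6.38, 192 and 7 UMIs) higher in AngII. *F13a1* was lower at 0.440 (0.405 to 0.479) and *Plau* at 0.409 (0.252 to 0.691), and without the cell richest in the gene these ratios were 0.578 and 0.573, past the rule no longer. *Pf4* was at 0.984 (0.907 to 1.07) and *Plaur* at 0.790 (0.648 to 0.972). The make-up of this group differed, with 25 of 31 cells in the type-2 class at steady state and 372 of 2050 in AngII. Within the type-2 class alone, *F7* stood at 10.8 and 43.3 CPM, *F10* at 17.0 and 84.7 CPM, *F13a1* at 990.2 and 451 CPM and *Pf4* at 837 and 859 CPM, in each case steady state first. The intervals of the first 3 did not overlap between libraries and those of *Pf4* did. Classical monocyte-like cells held like levels of *F13a1* in both conditions (ratio 1.01, 0.818 to 1.25), and *Plaur* was at 0.657 (0.514 to 0.849). There *Pf4* was past the rule, at 7.44 (2.02 to 62.0, 138 and 2 UMIs), 1 gene of 9 where 18.2% of 7086 genes were higher and 10.4% lower. These monocytes held 12.3 and 91.8 CPM of *Pf4*, below B and T cell-like cells in each library. With that level subtracted the ratio had no value. In AngII the monocytes stood above it once cells bearing markers of 2 lineages were left out.

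The 11 immediate early and heat shock genes that tissue dissociation is known to raise moved with this comparison. They summed to 15864 CPM in resident cells at steady state and 8831 CPM in AngII, to 11332 and 7489.8 CPM in the other macrophages, and to 9371 and 7369 CPM in classical monocyte-like cells, with all 11 genes seen in each group. Their part in the differences between the libraries was not tested. The libraries also differed in depth, animals and number of cells, and these cannot be told apart from AngII.

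**Figure D4:**
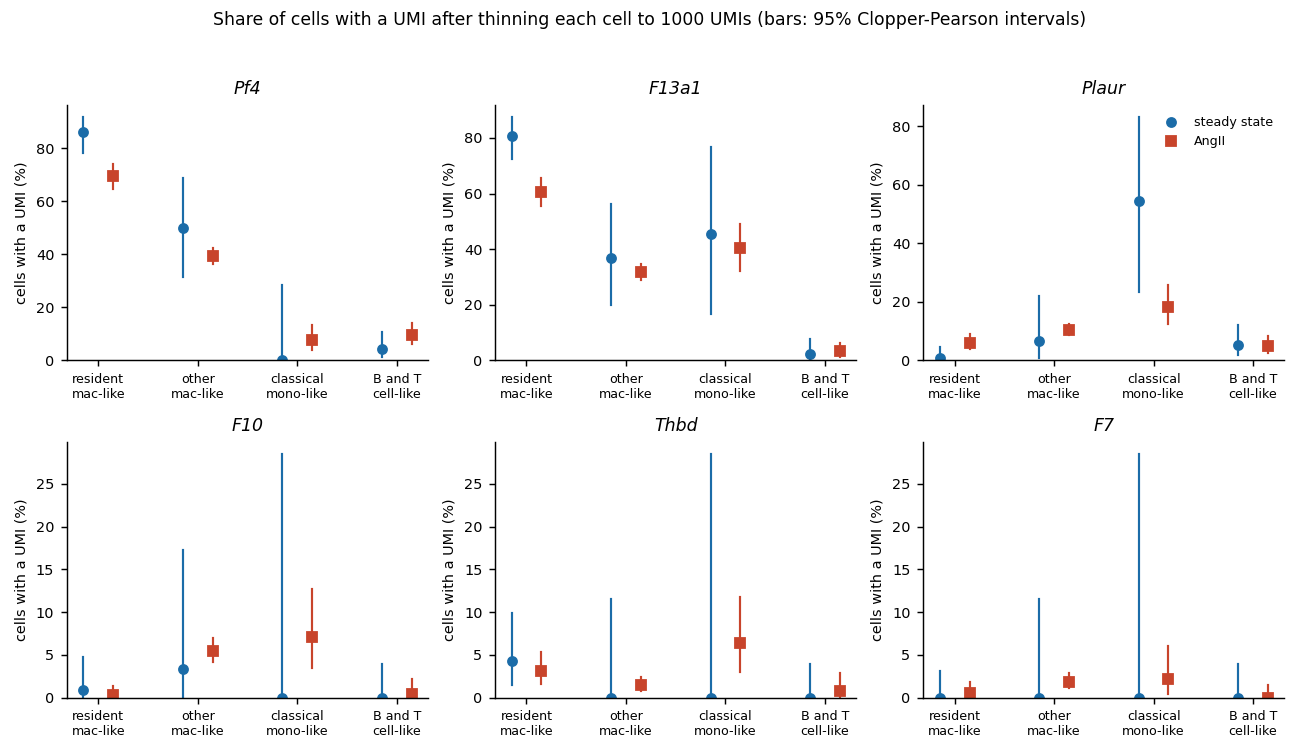
Share of cells with a UMI of 6 genes after each cell was thinned to 1000 UMIs, by class and library, with 95% Clopper-Pearson intervals (vertical scales differ between upper panels). *Pf4* was found in 86.1% and 69.6% of resident cells at steady state and in AngII, against 4.30% and 9.72% of B and T cell-like cells.

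Within resident macrophage-like cells, those with at least 1 *Yfp* UMI were set against the rest. At steady state (89 *Yfp*+ and 27 *Yfp*− cells, median 10905 and 5215 UMIs) 1 of the 9 genes was called, where 11.9% of 6977 genes were higher and 4.44% lower. This was *Thbd*, at 4.80-fold (1.28 to 40.4) from 66 and 2 UMIs. *Pf4* was 1.28-fold (1.17 to 1.40) and *F13a1* 1.10-fold (0.987 to 1.23) higher in *Yfp*+ cells. In AngII (163 and 393 cells, median 7042 and 1322 UMIs) 0 of the 9 genes were called, where 2.89% of 8884 genes were higher and 2.3% lower. *Pf4* was 1.48-fold (1.40 to 1.56), *F13a1* 1.21-fold (1.13 to 1.29) and *Tfpi* 1.94-fold (1.03 to 3.86) higher in *Yfp*+ cells, while *Thbd* stood at 0.964 (0.595 to 1.58). A *Yfp* UMI is found more often in a deeper cell, and the part of depth in these ratios was not tested.

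In AngII macrophage-like cells outside the resident class (195 *Yfp*+ and 1855 *Yfp*− cells, median 3683 and 938 UMIs), *F10* was lower in *Yfp*+ cells at 0.295 (0.212 to 0.401), and *Thbd* at 0.453 (0.271 to 0.721). These are 2 of 9 genes, where 1.88% of 10786 genes were called higher and 2.71% lower. *Plaur* was at 0.544 (0.454 to 0.647), and *Pf4* was higher at 1.74 (1.66 to 1.83). The *F10* ratio kept below 1 in all 12 alternatives but was above 0.5 in 3 of them, reaching 0.584.

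Cells that held *Pf4* mostly held *F13a1* too. Both were seen in 111 of 116 resident cells at steady state and in 340 of 556 in AngII, whereas 2 of 11 steady-state classical monocyte-like cells held both. Nearly every steady-state resident cell held each gene, so their overlap there shows no link. *Pf4* was in 97.4% of these cells with *F13a1* and in both of those without. In AngII resident cells these shares were 84.2% and 67.1%. All 7 of those monocytes with *F10* also held *Plaur*, but so did the 4 without *F10*, so this shows no link. The neighbouring genes *F7* and *F10* were seen together in 15 of 372 AngII type-2 macrophage-like cells, so that 50.0% of the cells with *F7* held *F10* against 13.5% of those without. Cells with a UMI of 1 gene tend to be deeper, so these shares are descriptions.

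Across 13 class profiles of at least 50 cells, from both libraries, the Pearson correlation of log2(CPM + 10) between *F13a1* and *Pf4* was 0.879 and that between *F10* and *Plaur* 0.811, while *F10* and *Pf4* gave 0.0374 and *Plaur* and *Pf4* −0.0131. *F13a1* was also close to *Thbd* (0.895), and *Plau* to *Pf4* (0.868). Outside the 9 genes, the profiles most like *Pf4* were those of *Selenop* (0.963), *Maf* (0.961) and *C1qa* (0.957), the last of which is a marker used for the classes. The most alike were *Cmklr1* (0.974) for *F13a1*, *Nfil3* (0.928) for *F10*, *Chp1* (0.920) for *Plaur*, *Ptgir* (0.892) for *F7*, *Ppp1r21* (0.938) for *Plau* and *Gm47586* (0.923) for *Tfpi*. At steady state only the resident macrophage-like (116 cells) and B cell-like (51 cells) classes were large enough, so most profiles are from AngII. Nonclassical monocyte-like cells were too few in both libraries. The profiles of 1 library share its depth and free RNA.

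The other genes of coagulation and fibrinolysis were taken from a list of 51. At steady state 11 of them had at least 20 UMIs in resident and other macrophage-like cells together, of which 4 were called higher in resident cells and 3 lower, with a median log2 ratio of 0.94 against 0.13 over all genes (13.7% of all genes were higher and 5.82% lower). The higher ones were *Gas6* (6.32-fold), a vitamin K-dependent ligand of TAM receptors that is also a resident marker here, the protease inhibitors *Serpinb6a* (3.47-fold) and *Serpinb8* (2.36-fold), and the thrombospondin receptor *Cd36* (2.37-fold). As *Gas6* helped define the resident class, its calls for resident cells here and below were favoured by the gate. It is included in the counts and medians. The lower ones were *Anxa2* (0.352) and *S100a10* (0.461), which together bind plasminogen, and *Eno1* (0.487), which encodes a glycolytic enzyme that also binds it. In AngII 20 of the 51 had enough UMIs, 5 being higher in resident cells and 6 lower, with a median of −0.23 against 0.09 (4.13% and 3.94% of all genes). *Gas6* (8.02-fold), *Serpinb6a* (3.12-fold), *Serpinb8* (2.43-fold), *Cd36* (2.08-fold) and the transglutaminase *Tgm1* (2.04-fold) were higher. *Thbs1* (0.380), *Tgm2* (0.497), *F5* (0.417), *Vwf* (0.462), *F2rl2* (0.195) and *Ppbp* (0.471) were lower.

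*Thbs1*, which encodes the matrix protein and platelet granule protein thrombospondin 1, was higher in AngII in each of the groups compared. Resident macrophage-like cells held no UMI of it at steady state and 693 in AngII, at least 106-fold higher, and the other macrophages held 5 and 4987 UMIs (92.1-fold, 39.4 to 284). Classical monocyte-like cells held 635 CPM at steady state, 75 of 103 UMIs in 1 cell, and 1902 CPM in AngII (2.99-fold, 2.46 to 3.68). In AngII it stood at 1048 CPM in reparative and 249.5 CPM in resident cells, against 71.5 CPM in B and T cell-like cells. *Tgm2*, a tissue transglutaminase that like factor XIII cross-links proteins, was 4.36-fold higher in AngII resident cells (104 and 11 UMIs), and at least 17.6-fold higher in the other macrophages (572 and 0 UMIs). *Cd36* was lower in AngII in both groups (0.233 and 0.266), as was *Serpinb8* (0.466 and 0.452). In all, 3 listed genes were higher and 2 lower of 15 in resident cells (median log2 ratio 0.14 against 0.03 over all genes, of which 7.21% were higher and 7.11% lower), and 5 higher and 6 lower of 21 in the other macrophages (−0.03 against 0.05, with 14.1% and 7.66% of all genes). *F3*, which encodes tissue factor, the partner of factor VII, held 0 and 1 UMIs in resident cells and 5 and 15 UMIs in the other macrophages, steady state first.

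Listed genes also separated the monocytes. Of 12 with enough UMIs at steady state, 3 were higher in classical monocyte-like than in resident cells (*Anxa2*, *Eno1* and *Thbs1*, with 75 of 103 *Thbs1* UMIs in 1 cell) and 7 were lower, with a median log2 ratio of −1.36 against −0.19 over all genes, of which 11.3% were higher and 26.9% lower. In AngII, of 18 listed genes, 6 were higher and 5 lower, with a median of 0.19 against −0.17 and with 4.79% and 14.2% of all genes. The lower genes of both libraries include *Gas6*, a marker of the resident class. There *F5*, whose protein is the cofactor of active factor X, was 7.18-fold (3.39 to 17.0) higher in classical monocyte-like cells and *Procr*, the protein C receptor, 5.31-fold (2.29 to 13.7). *Pros1*, which encodes the anticoagulant protein S, was lower there in both libraries (0.193 and 0.360), and so was *Vkorc1* (0.217 and 0.239), needed for the vitamin K cycle. Between *Yfp*+ and *Yfp*− resident cells, 2 of 11 listed genes were called at steady state (*Anxa2* 2.59-fold and *S100a10* 2.21-fold, both higher in *Yfp*+ cells) and 2 of 14 in AngII (*Tgm2* 0.460 and *Thbs1* 0.469, both lower), where 11.9% of all genes were higher at steady state and 2.3% lower in AngII. The median log2 ratios were −0.05 against 0.06 at steady state and 0.24 against 0.03 in AngII. Between the libraries, 5 of 15 listed genes were higher and 2 lower in AngII classical monocyte-like cells (median 0.49 against 0.03, with 18.2% and 10.4% of all genes), and between *Yfp*+ and *Yfp*− other macrophages of AngII 2 of 20 were higher and 1 lower (−0.03 against 0.02, with 1.88% and 2.71% of all genes).

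**Figure D5:**
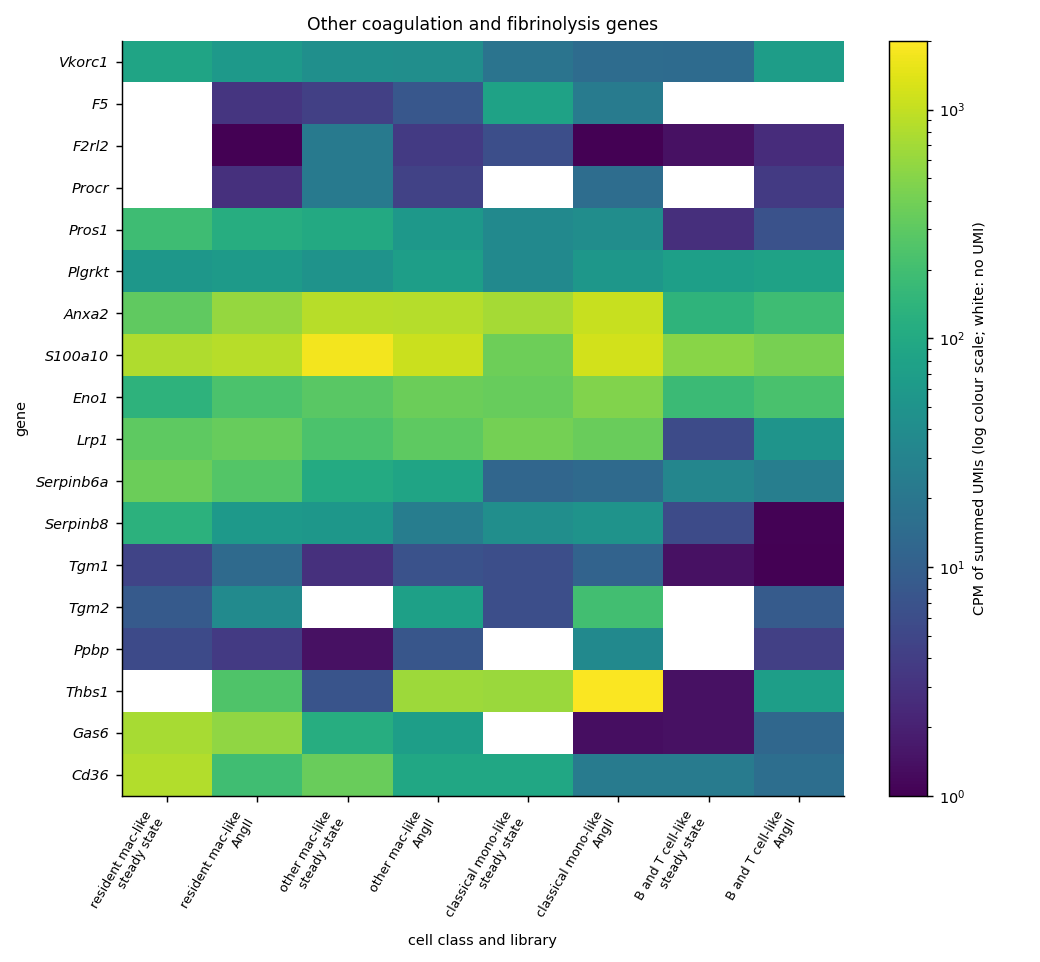
Level of 18 other coagulation and fibrinolysis genes (CPM of summed UMIs, logarithmic colour scale with values under 1 drawn at 1, white where no UMI was seen) in 4 groups of cells of each library. *Thbs1* is white in steady-state resident cells and brightest in AngII classical monocyte-like cells (1902 CPM). *Gas6*, a marker used to define the resident class, is bright in resident cells of both libraries.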

How the data were processed

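Single CD45+ cells of whole aortas were measured in 2 libraries, steady state and AngII. Reads were demultiplexed by the authors with Je and aligned by Cell Ranger 3.1.0 against a GRCm38.p6 reference (GENCODE M24 genes plus eYFP), and the deposited values are raw UMI counts of each gene in each called barcode. Library totals were 4009678 UMIs at steady state and 20481854 in AngII.

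The filter stated in the authors' methods (300 to 6500 genes, at most 5% mitochondrial UMIs) was applied, removing 40 and 221 barcodes. The paper reports 346 and 4419 analysed cells, which equal the barcodes before this step. The cells kept here are thus fewer than those of the study. A cell was given the lineage, from 18 marker lists, with the largest share of its markers detected (at least 2, ties by UMIs per listed gene), and macrophages were then divided into subtypes in the same way. These rebuilt classes may differ from those of the study. The members and lists were chosen with earlier results of these data known, and the gate, the comparisons with classical monocytes and that of *Yfp* in other macrophages were settled after the values were seen. Doublets were left in, and cells with at least 3 markers of each of 2 lineages (20 and 615) were left out in an alternative.

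CPM were computed from summed UMIs with exact Poisson intervals, ratios with exact conditional binomial intervals and shares with Clopper-Pearson intervals, all at 95%. A count of 0 was set to 3 UMIs per group for limits. A *Yfp*+ cell held at least 1 EYFP UMI. For resident over other macrophages, 6 of the 9 genes met the minimum of 20 UMIs at steady state and 8 in AngII. For AngII over steady state, 7 met it in resident cells, 8 in other macrophages and 5 in classical monocytes. For classical monocytes over resident cells, 7 met it at steady state and 8 in AngII. For *Yfp*, 6 and 7 met it in resident cells, steady state first, and 8 in AngII other macrophages. Genes named are the 9 members, listed pathway genes passing 20 UMIs and 2-fold, and the genes with profiles most alike over classes of at least 50 cells. The alternatives changed the barcode filter (none, or at least 1000 genes), the gate (3 markers, or clusters), the doublets, depth (1000 UMIs), the CPM, the richest cell, free RNA and the *Yfp* call, and 2 more were added after the data were seen (cells with 2 platelet markers, or with 5% immunoglobulin UMIs, left out). Of the listed genes, a few are not reported here. Motifs were searched in RefSeq start-site windows, in which *Plau* and *Thbd* are not listed. The size rule, the intervals and the gate were run on simulated data. For the gate the cells were drawn from mean profiles of its own classes, so this cannot show that the classes are right. Python 3.11.15, NumPy 2.4.6, SciPy 1.17.1, pandas 2.3.3, Scanpy 1.11.5 (clusters) and Matplotlib 3.10.9 were used.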

Additional observations from a re-analysis of the deposited data

Results flagged for a closer look

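*Plaur*, the urokinase receptor gene, was higher in AngII than at steady state in resident macrophage-like cells (ratio 3.64, 158 and 20 UMIs) and lower in the other macrophage-like cells (0.790). The 2 ratios lie on opposite sides of 1, and the difference between them was not tested. After each cell was thinned to 1000 UMIs they were 7.35, from 1 UMI at steady state, and 1.75, no longer opposite.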

How the results depend on the processing

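No paired analysis was possible because each condition is 1 library. Of the values for single genes under the alternatives, 720 stayed within the interval of the value reported, 127 moved beyond it in the same direction or without a call, and 1 turned in direction, *Tfpi* in resident against other AngII macrophages, at 0.996 after thinning. Of the 9 genes, the number past the 2-fold rule between resident and other macrophages at steady state was 5, and 2 after thinning. Between AngII and steady state it was 2 in resident cells, against 4 without cells bearing markers of 2 lineages, 4 with the B and T cell level subtracted and 1 after thinning, and in the other macrophages 4, against 2 after thinning and 2 without the richest cell. Between *Yfp*+ and *Yfp*− resident cells at steady state it was 1, against 0 after thinning and 2 with at least 2 EYFP UMIs. In AngII it was 0, against 1 without the barcode filter, with clusters, without cells of 2 lineages or with each cell's own CPM, and 2 with the B and T cell level subtracted. Between classical monocytes and resident cells it was 5 at steady state (2 to 6) and 7 in AngII (3 to 7), between the libraries in classical monocytes 1 (0 to 2), and between *Yfp*+ and *Yfp*− other macrophages of AngII 2 (0 to 5). Causes were not tested. *Pf4* in resident over other macrophages ranged from 3.20 to 4.81 at steady state and from 2.16 to 3.76 in AngII, and *F13a1* from 2.52 to 3.35 and 2.75 to 3.54. *Thbd* between *Yfp*+ and *Yfp*− steady-state cells ranged from 1.17 to 5.18. Thinning gave no value for 28 comparisons of a gene with too few UMIs, and the clusters held no classical monocyte class. At a median of 1092 UMIs per AngII cell, *F7*, *Tfpi*, *Plau* and *Serpinb2* are near the limit of detection in single cells.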
